A study of Mus musculus with 34 samples.

Results

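The protocadherin genes, taken as all genes whose name starts with Pcdh, made up 70 of the 52661 genes in an expression table of N2A cells. Of these, 58 belonged to the clusters (14 Pcdha, 22 Pcdhb and 22 Pcdhg genes) and 12 were other protocadherins. Protocadherins are the largest subgroup of the cadherin superfamily, cell surface proteins with repeated extracellular cadherin domains that bind each other between cells. In the mouse most of them lie in 3 neighbouring clusters named Pcdha, Pcdhb and Pcdhg. In the Pcdha and Pcdhg clusters each gene begins with its own promoter and a large variable exon, which is spliced to constant exons shared by the whole cluster, whereas the Pcdhb genes have no shared constant exons. Neurons are known to express small, differing sets of these isoforms, a choice that involves DNA methylation of the promoters, the insulator protein CTCF and cohesin, and the sets serve cell recognition and self-avoidance of neurites. The non-clustered protocadherins are single genes on several chromosomes, with roles in axon growth, synapses and other tissues. Among them Pcdh1 and Pcdh12 lie on the same chromosome as the clusters, beyond Pcdhg.

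N2A (Neuro-2A) is a mouse neuroblastoma line that grows in culture, so these values describe 1 transformed line and not neurons. Cells had been treated for 24 h with 1 of 27 compounds or with the vehicle alone, at a final DMSO concentration of 0.4% in every arm, and polyA+ RNA was sequenced in 34 libraries. DMSO had 3 libraries, the 4 histone deacetylase (HDAC) inhibitors CI-994 (5 µM), Vorinostat (2.5 µM), BRD4884 (10 µM) and BRD6688 (10 µM) had 2 each, and 5-azacytidine (5 µM) and the 22 other compounds had 1 each. HDAC inhibitors block the removal of acetyl groups from histones, and 5-azacytidine is a cytidine analogue that traps DNA methyltransferases and so lowers DNA methylation. The 22 others included kinase inhibitors and screening-library molecules that had been picked, like all the compounds, for changing microexon splicing.

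Expression was read in 2 ways. The gene table gave 1 RPKM value (reads per kilobase of transcript and 1000000 mapped reads) per gene and condition with replicates merged, so its ratios have no replicate error. Reads across exon-exon junctions in the splicing table gave a second measure per library, at a depth of 17702718 to 40613524 junction reads per library (median 26332958), and they are given as RPM, reads per 1000000 junction reads of the library. Of the neural marker list, 11 of 14 genes were above 1 RPKM in DMSO, as were 2 of 4 oligodendrocyte markers, while all astrocyte, fibroblast, immune and endothelial markers checked were below it.

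Few protocadherins were expressed at an appreciable level. In DMSO the median over the 70 genes was 0.075 RPKM, 9 genes were above 1 RPKM and 11 were listed at 0. Across all 28 conditions, 21 genes passed 1 RPKM in at least 1 condition (5 Pcdha, 9 Pcdhb, 3 Pcdhg and 4 others), and 6 passed 5 RPKM. A further 39 stayed below 0.5 RPKM in every condition, namely 8 Pcdha, 5 Pcdhb, 18 Pcdhg and 8 others. The 8 low genes outside the clusters were Pcdh7, Pcdh8, Pcdh9, Pcdh10, Pcdh11x, Pcdh18, Pcdh19 and Pcdh20, whose highest value in any condition was 0.12 RPKM (Pcdh10), and Pcdh8 was listed at 0 throughout. In the splicing table, 14 protocadherin entries had introns with read counts, and 3 of these had no junction read in any library, which allows at most 3 reads per library, or 0.0739 to 0.169 RPM depending on depth (counting error only). There were 6 entries with enough reads to be tested, and the highest library of the remaining 8 held 7 reads.

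Promoter sequence was at hand for 9 of the 70 genes, all outside the clusters, as 300-base windows (250 bases before and 50 after the start) from RefSeq on GRCm38.p6. These are shown for 3 genes to set the promoter of Pcdh17, which had the largest difference under HDAC inhibitors, beside those of Pcdh10 and Pcdh20, which were at 0 in DMSO. CpG dinucleotides, the sites of DNA methylation, are in capitals. The window of Pcdh17 lies on the plus strand at chr14:84443313-84443612 and holds 26 CpG, that of Pcdh10 on the plus strand at chr3:45378148-45378447 holds 24, and that of Pcdh20 on the minus strand at chr14:88471347-88471646 holds 4.
Pcdh17: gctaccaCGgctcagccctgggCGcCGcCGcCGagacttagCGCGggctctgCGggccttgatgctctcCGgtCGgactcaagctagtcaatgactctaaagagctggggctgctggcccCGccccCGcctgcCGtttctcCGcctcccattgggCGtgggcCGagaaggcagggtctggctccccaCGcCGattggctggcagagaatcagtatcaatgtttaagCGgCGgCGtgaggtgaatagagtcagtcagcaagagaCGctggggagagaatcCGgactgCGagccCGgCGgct
Pcdh10: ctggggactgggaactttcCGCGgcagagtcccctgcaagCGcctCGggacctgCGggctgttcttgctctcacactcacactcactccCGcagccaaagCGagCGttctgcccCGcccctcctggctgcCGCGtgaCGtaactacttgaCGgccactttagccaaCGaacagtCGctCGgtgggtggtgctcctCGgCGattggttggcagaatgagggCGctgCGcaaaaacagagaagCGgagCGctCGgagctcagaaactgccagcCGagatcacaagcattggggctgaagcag
Pcdh20: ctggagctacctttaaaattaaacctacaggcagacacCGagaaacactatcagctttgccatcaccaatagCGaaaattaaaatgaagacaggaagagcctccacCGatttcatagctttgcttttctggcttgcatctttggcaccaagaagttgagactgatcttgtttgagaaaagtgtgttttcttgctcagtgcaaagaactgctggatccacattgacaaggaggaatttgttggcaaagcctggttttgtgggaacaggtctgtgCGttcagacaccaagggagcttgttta
The median over 32851 promoter windows was 7 CpG, and 83.1% of windows had fewer than Pcdh17, 80.0% fewer than Pcdh10 and 31.4% fewer than Pcdh20. Pcdh17 and Pcdh10 had promoters of similar CpG content, and both were below 1 RPKM in DMSO, at 0.77 and 0. Whether CpG content bears on the expression of these genes was not tested. The letters GGGCGG, a binding motif of Sp1 family factors read on both strands, were found in the windows of Pcdh17, Pcdh10, Pcdh18 and Pcdh19 and in 35.7% of all windows. The letters TGACGTCA, the palindromic cAMP response element, were in none of the 10 windows of these 9 genes and in 1.79% of all windows. The Pcdh15 window lay 722525 bases from the start of the gene in the annotation of the expression table, so it is not the promoter of the whole gene model.

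Pcdh17, Pcdh12, Pcdh15 and Pcdh1 had more RNA with all 4 HDAC inhibitors than with DMSO, in both measures. Pcdh17, an adhesion protein of axons that recruits the WAVE actin regulator, lies at chr14:84443563-84539002 (GRCm38, plus strand). Its level was 0.77 RPKM in DMSO and 9.77 with CI-994, 7.45 with Vorinostat, 4.35 with BRD4884 and 3.21 with BRD6688, while 5-azacytidine gave 0.57 and the 22 other compounds 0.56 to 1.45 (median 0.795). All 4 HDAC inhibitors thus lay above every other condition.

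The junction reads of Pcdh17 gave the same order per library. They were 1.16, 1.15 and 1.15 RPM in the DMSO libraries, 20.4 and 20.2 with CI-994, 12.2 and 15.96 with Vorinostat, 10.2 and 9.32 with BRD4884 and 5.64 and 5.42 with BRD6688. None of the 8 HDAC inhibitor libraries overlapped the DMSO libraries, and the 22 other compounds ranged from 0.583 to 2.58. The share of all genes whose libraries separate from DMSO in this way is not given here, for this gene or for those below. The log2 difference from DMSO was 3.65 ± 0.17 (SE) with CI-994 (limma, Benjamini-Hochberg adjusted p = 2.96e-10), 3.13 ± 0.17 with Vorinostat (1.19e-09), 2.63 ± 0.17 with BRD4884 (2.46e-08) and 1.87 ± 0.17 with BRD6688 (8.69e-07). These calls stand against a broad response, since 41.4% of the 11223 genes tested passed as higher with CI-994, 41.5% with Vorinostat, 41.2% with BRD4884 and 39.9% with BRD6688. Passing together with a more than 2-fold rise was less common, at 21.3%, 20.8%, 17% and 14% of genes.

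Pcdh12, also known as vascular endothelial cadherin 2, an adhesion protein of endothelium and placenta, lies at chr18:38267089-38284402 (GRCm38) on the minus strand. Its level was 0.34 RPKM in DMSO, 2.38 with CI-994, 1.37 with Vorinostat, 2.13 with BRD4884 and 2.27 with BRD6688. The 22 other compounds ranged from 0.03 to 1.59 RPKM, so Vorinostat lay inside their range and the other 3 HDAC inhibitors above it. Junction RPM values were 0.542, 0.141 and 0.550 in DMSO, 4.55 and 3.72 with CI-994, 2.65 and 1.54 with Vorinostat, 3.32 and 3.56 with BRD4884 and 3.73 and 3.04 with BRD6688. All 8 treated libraries were above all DMSO libraries, with log2 differences of 2.38 ± 0.26, 1.52 ± 0.26, 2.15 ± 0.26 and 2.12 ± 0.26 (SE) and limma adjusted p from 1.23e-04 (Vorinostat) to 1.54e-06 (CI-994).

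Endothelial markers, summed, were also above DMSO with all 4 HDAC inhibitors, but not in the order of Pcdh12. Their sum was lowest with BRD6688, whereas Pcdh12 was lowest with Vorinostat. The summed level of the 4 listed (Pecam1, Kdr, Cdh5 and Tek) was 0.82 RPKM in DMSO, of which Pecam1 made up 0.79, and 3.17 to 7.59 with the HDAC inhibitors, against 0.61 to 4.71 with the other compounds. All 3 of these markers that could be tested in the junction reads passed as higher with each HDAC inhibitor, where 39.9% to 41.5% of all genes did. The read filter averages over all libraries, and none of the markers was above 1 RPKM in DMSO. Markers low in DMSO may thus have met it through the HDAC inhibitor libraries, and this count has little weight. Kdr, the vascular endothelial growth factor receptor, stayed at 0.12 RPKM or less. The sum of 4 fibroblast markers went from 0.12 RPKM in DMSO to between 1.49 and 13.43 with HDAC inhibitors, led by Col1a1, and was 0.09 to 2.47 with the 22 others, a range that includes BRD6688 (1.49). Their part in the values of Pcdh12 was not tested, and in bulk RNA a change in the share of cells of a type and a change in RNA per cell cannot be told apart.

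Pcdh15, a component of the tip links of inner ear hair cells, lies at chr10:73099342-74649737 (GRCm38) on the plus strand. It was at 0.20 RPKM in DMSO and at 1.60 with CI-994, 1.27 with Vorinostat, 0.82 with BRD4884 and 0.91 with BRD6688. Junction RPM values were 1.60, 1.38 and 1.35 in DMSO, 12.8 and 13.2 with CI-994, 7.06 and 10.2 with Vorinostat, 7.61 and 4.93 with BRD4884 and 7.16 and 6.17 with BRD6688. The treated libraries did not overlap DMSO, and the log2 differences were 2.80 ± 0.21, 2.21 ± 0.21, 1.77 ± 0.21 and 1.88 ± 0.21 (SE), with limma adjusted p from 6.85e-06 (BRD4884) to 2.81e-08 (CI-994). These levels were not confined to HDAC inhibitors, because 5 of the 22 other compounds reached 5.22 to 8.40 RPM, as given further on.

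Pcdh1, the most abundant protocadherin here and a cell adhesion gene best known from airway epithelium, lies at chr18:38185914-38212053 (GRCm38) on the minus strand. It had 49.16 RPKM in DMSO, 117.64 with CI-994, 78.35 with Vorinostat, 63.12 with BRD4884 and 85.90 with BRD6688, against 36.92 to 72.11 with the 22 others, so that BRD4884 fell within that range. Junction RPM values were 36.5, 37.4 and 32.7 in DMSO, 96.8 and 96.2 with CI-994, 66.0 and 78.4 with Vorinostat, 53.8 and 51.6 with BRD4884 and 64.9 and 63.4 with BRD6688. Again no treated library overlapped DMSO, and the log2 differences were 1.43 ± 0.10, 1.01 ± 0.10, 0.56 ± 0.10 and 0.85 ± 0.10 (SE), with limma adjusted p from 1.78e-04 (BRD4884) to 9.13e-09 (CI-994).

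**Figure D1:**
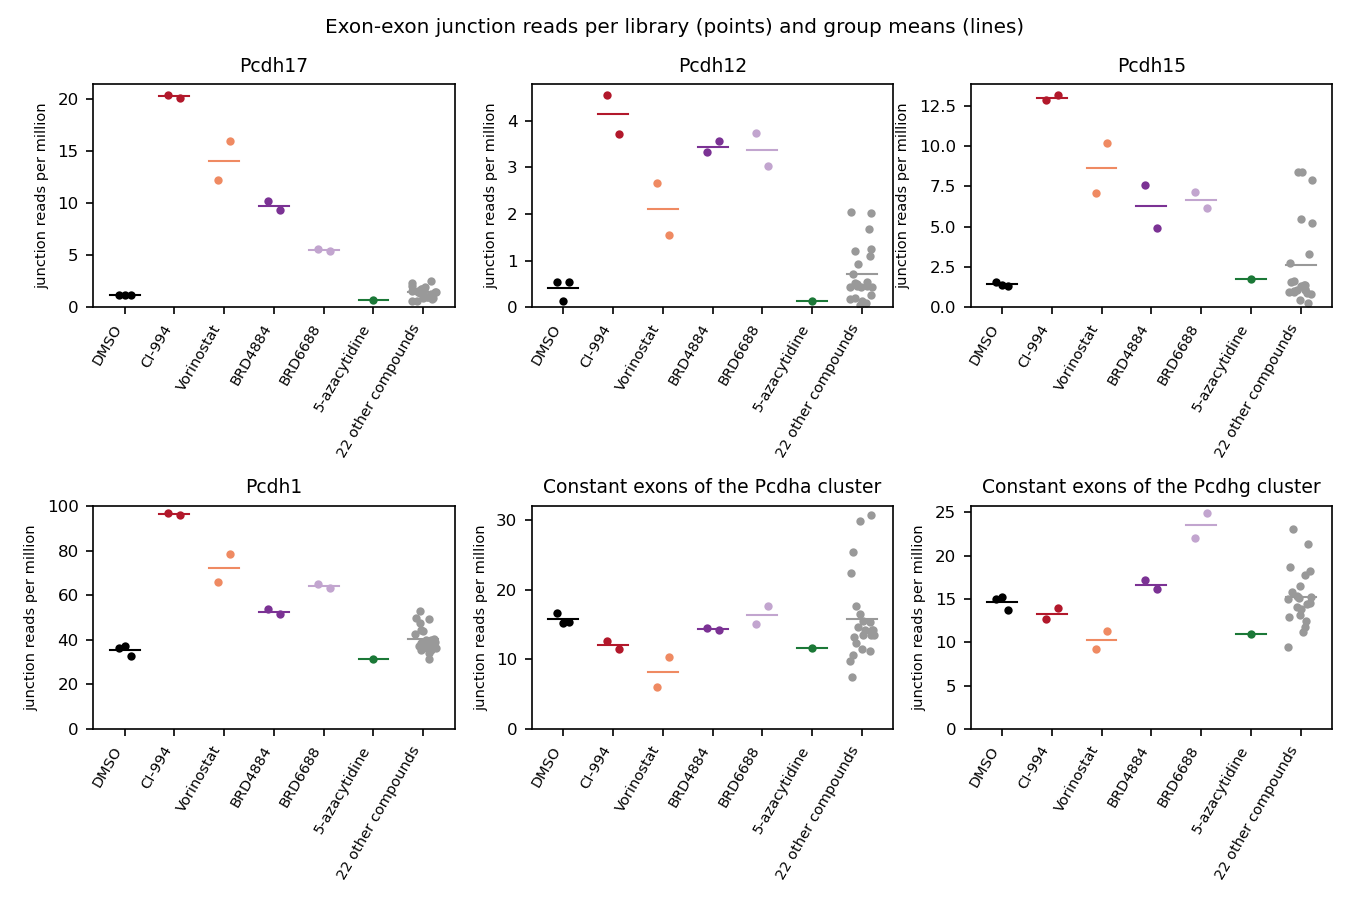
Exon-exon junction reads in RPM (y axis, linear) for the 6 protocadherin entries with enough reads, in each of the 34 libraries (points) with the mean of each group (line), where the 22 other compounds share 1 column. For Pcdh17, Pcdh12, Pcdh15 and Pcdh1 all 8 HDAC inhibitor libraries lie above the 3 DMSO libraries, whereas for the constant exons of the Pcdha and Pcdhg clusters they lie on both sides of DMSO or overlap it. The share of all genes that separate in this way is not given.

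The clustered genes lay on both sides of DMSO. Members were counted in the gene table as more than 2-fold from DMSO with more than 1 RPKM in either condition, on ratios of RPKM + 0.5, an added constant that shrinks the ratios of low genes, and again on plain ratios without it. With CI-994, 0 of 9 clustered genes were higher and 1 lower, against 4 of 4 others higher, where 17.4% of all genes that met the limit were higher and 21.9% lower. On plain ratios Pcdhb2 was also higher, which made 1 of 9 (19.4% of all genes higher, 23.7% lower). With Vorinostat 0 of 12 clustered genes were higher and 3 lower, and 3 of 4 others higher, against 16.5% and 19.7% of all genes. Plain ratios put 2 of the 12 higher, Pcdhb10 and Pcdhb11, and again 3 lower (18.5% and 21.6% of all genes). BRD4884 had 1 of 12 clustered genes and 2 of 3 others higher (10.5% of all genes), and BRD6688 the same counts (8.73%), with no protocadherin lower where 4.61% and 6.89% of all genes were. Plain ratios gave 2 of 12 clustered genes higher with either compound, Pcdhb2 and Pcdhb10 (12.6% and 11% of all genes), and again none lower (5.84% and 8.3%). Pcdh12, Pcdh15, Pcdh17 and the Pcdhb genes counted as higher were below 1 RPKM in DMSO and met the limit only because they were higher with treatment, so these counts have little weight beyond the values themselves. There are no replicates behind them. At a limit of 5 RPKM the genes counted were Pcdh17 and Pcdh1 with CI-994 (10.2% of all genes higher), Pcdh17 with Vorinostat (10.4%), and Pcdhac2 as lower with Vorinostat (22.5% lower).

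The Pcdha cluster (GRCm38 chr18:36930184-37187661) was led by Pcdhac2, an isoform of the C type, which many neurons express together with the isoforms picked by promoter choice. Pcdhac2 made up 66.2% of the summed Pcdha RPKM in DMSO. It stood at 19.31 RPKM in DMSO, 10.74 with CI-994, 6.52 with Vorinostat, 11.60 with BRD4884, 17.22 with BRD6688 and 13.58 with 5-azacytidine, and the 22 others ranged from 9.59 to 34.38. All 4 HDAC inhibitors were below DMSO, and Vorinostat was below every other condition, but with BRD6688 the sign turns (0.048 on the log2 scale) when ratios are set against the median gene. The next genes were Pcdha9, at 4.46 RPKM in DMSO and 2.70 to 5.11 with HDAC inhibitors, Pcdha8, at 2.66 and 1.72 to 3.12, and Pcdhac1, at 1.75 and 1.09 to 1.62.

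The summed Pcdha level, 29.16 RPKM in DMSO, was 0.672 times DMSO with CI-994, 0.463 with Vorinostat, 0.774 with BRD4884 and 0.988 with BRD6688. Genes above 5 RPKM had a median log2 ratio to DMSO that was itself below 0, at -0.51, -0.42, -0.29 and -0.21 with these compounds. Set against it, the Pcdha sum differed by -0.065, -0.69, -0.080 and 0.19 on the log2 scale, so that only Vorinostat stood well below the median gene. Reads across the 2 introns between the constant exons measured all Pcdha isoforms together per library. These introns are listed under Pcdha6 and lie in mm9, the build of the splicing table, at chr18:37315868-37318918 and chr18:37319008-37344599, and introns of the same lengths occur in 13 of the 14 Pcdha genes. There were 16.7, 15.2 and 15.4 RPM in DMSO, 12.6 and 11.5 with CI-994, 6.04 and 10.3 with Vorinostat, 14.5 and 14.2 with BRD4884 and 15.1 and 17.6 with BRD6688. The libraries of CI-994, Vorinostat and BRD4884 were all below DMSO, and those of BRD6688 lay on both sides of it. Only the fall with Vorinostat passed the test, at a log2 difference of -0.95 ± 0.17 (SE, limma adjusted p = 1.79e-04), where 34.3% of genes passed as lower. With CI-994 it was -0.38 ± 0.17 (0.0608, and 0.00537 and 0.00554 when either Vorinostat library was left out), with BRD4884 -0.13 ± 0.17 (0.543) and with BRD6688 0.051 ± 0.17 (0.810).

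The Pcdhg cluster (GRCm38 chr18:37661793-37841873) was led by Pcdhgc3, also of the C type, with 66.9% of the summed Pcdhg RPKM in DMSO, and the top 3 genes made up 96.5%. Pcdhgc3 was at 18.16 RPKM in DMSO, 12.90 with CI-994, 10.77 with Vorinostat, 22.16 with BRD4884 and 23.25 with BRD6688, against 12.78 to 25.14 with the 22 others. Pcdhgb1 was at 4.73 RPKM in DMSO and at 3.03, 1.87, 3.50 and 5.09 with the same 4 compounds. Pcdhgb8, annotated as a polymorphic pseudogene, was at 3.29 RPKM in DMSO and at 0.74, 0.45, 1.95 and 2.04, and the 22 others ranged from 1.46 to 4.19. Hence Pcdhgb8 was lower with all 4 HDAC inhibitors, by more than 2-fold with CI-994 and Vorinostat, while Pcdhgc3 was lower with these compounds and higher with BRD4884 and BRD6688. Set against the median gene, Pcdhgb8 stayed below 0 with all 4 (-1.58 to -0.34 on the log2 scale), and Pcdhgc3 was at 0.031 with CI-994 and -0.31 with Vorinostat.

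The 2 introns between the Pcdhg constant exons (mm9 chr18:37984734-37992918 and chr18:37993008-37999556, listed under Pcdhga12) have lengths that occur in all 22 Pcdhg genes. Their values were 14.97, 15.2 and 13.7 RPM in DMSO, 12.7 and 13.97 with CI-994, 9.21 and 11.3 with Vorinostat, 17.2 and 16.1 with BRD4884 and 22.1 and 24.96 with BRD6688. Vorinostat lay below and both BRD compounds above all DMSO libraries, and CI-994 overlapped them. The fall with Vorinostat passed at a log2 difference of -0.50 ± 0.13 (SE, limma adjusted p = 0.00251) and the rise with BRD6688 at 0.67 ± 0.13 (4.06e-04), but not the differences of 0.18 ± 0.13 with BRD4884 (0.223) and -0.13 ± 0.13 with CI-994 (0.362).

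The Pcdhb cluster (GRCm38 chr18:37264938-37524479) held low genes, with a sum of 7.94 RPKM over 22 genes in DMSO. The sum was 0.958 times DMSO with CI-994 (0.45 above the median gene on the log2 scale) and 1.5, 1.45 and 1.48 times with Vorinostat, BRD4884 and BRD6688. Of the 22 genes, 8 were higher than DMSO with all 4 compounds and 4 lower with all 4, and the share of all genes that do so is not given here. These directions have little weight, because the median Pcdhb gene was at 0.31 RPKM in DMSO and 5 stayed below 0.5 RPKM in every condition. Pcdhb2 was at 0.58 RPKM in DMSO and at 1.41, 1.15, 1.64 and 1.40 with CI-994, Vorinostat, BRD4884 and BRD6688. Pcdhb10 was at 0.58 and at 0.67, 1.20, 1.71 and 1.87, and Pcdhb11 at 0.63 and at 0.75, 1.47, 1.22 and 1.13. Pcdhb20, the highest Pcdhb gene in DMSO at 1.08 RPKM, had 0.84 to 1.31, and Pcdhb6, at 0.75, had 0.17 with CI-994 and 0.68 to 1.15 with the other 3. The splicing table as used here held no introns of Pcdhb genes, so these values have no replicate check.

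**Figure D2:**
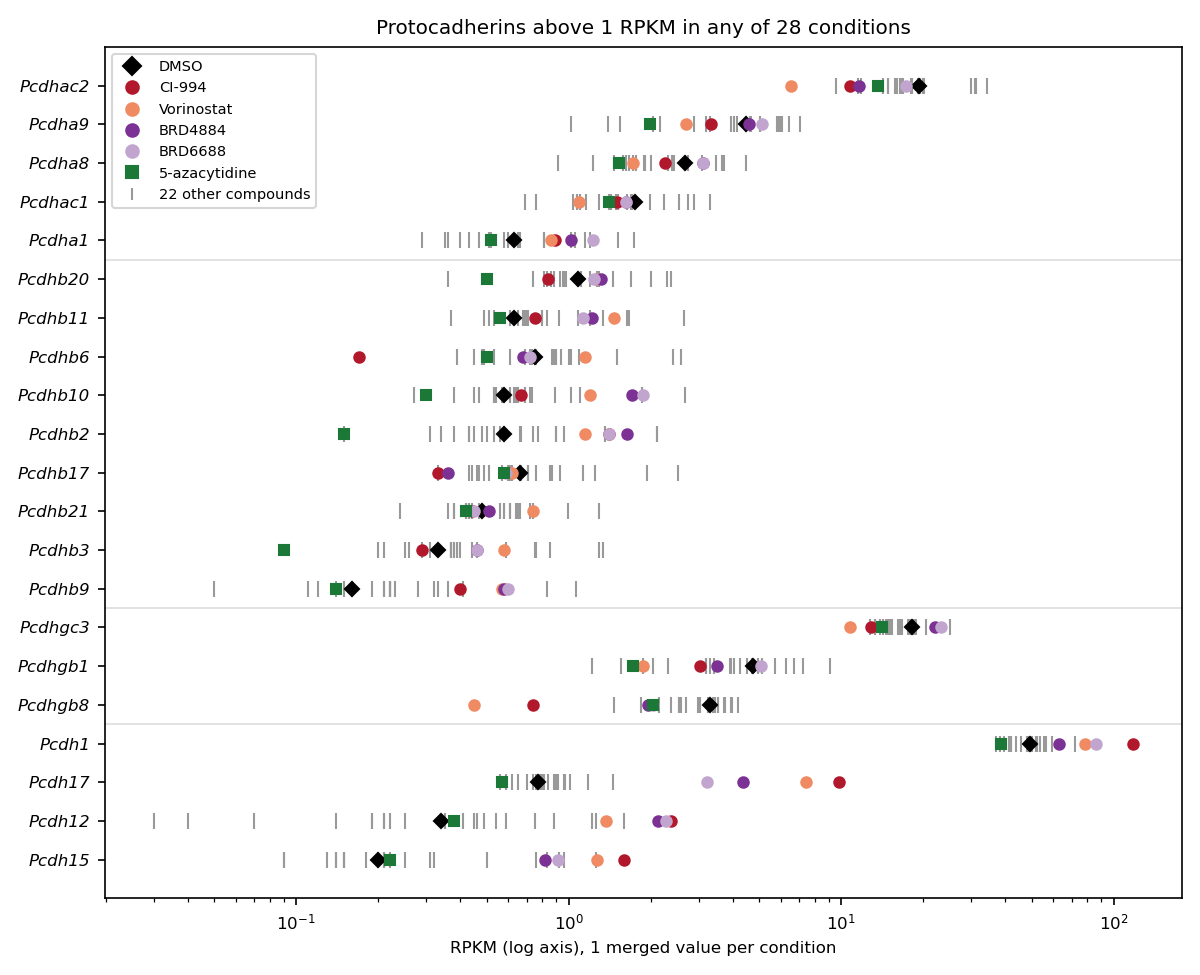
RPKM (x axis, log scale, 1 merged value per condition, no error bars) of the 21 protocadherins above 1 RPKM in any of the 28 conditions, grouped as Pcdha, Pcdhb, Pcdhg and others, with DMSO as diamonds, HDAC inhibitors as circles, 5-azacytidine as squares and the 22 other compounds as ticks. Pcdh17 has all 4 HDAC inhibitors (3.21 to 9.77) to the right of every other condition, whereas Pcdhgb8 has CI-994 (0.74) and Vorinostat (0.45) to the left of all others.

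HDAC inhibitors were next compared as a class with the 22 other compounds, with 1 RPKM value per compound as the unit, so that the spread is that between compounds. The study describes BRD4884 and BRD6688 as derivatives of CI-994. The p-values treat the 4 HDAC inhibitors as independent, which related compounds may not be. Of the members, 18 had a mean of at least 0.5 RPKM and were tested (15 clustered, 3 others), and 52 were too low. Passing as higher were Pcdh17, Pcdh12, Pcdh1 and Pcdhb2, and as lower Pcdhac2 and Pcdhgb8, which is 4 and 2 of 18 where 17.8% and 31.9% of all 13800 genes passed. The log2 difference was 2.22 ± 0.18 (SE) for Pcdh17 (limma, Benjamini-Hochberg adjusted p = 1.28e-09), 1.46 ± 0.29 for Pcdh12 (1.34e-04), 0.80 ± 0.14 for Pcdh1 (2.40e-05) and -1.07 ± 0.21 for Pcdhgb8 (1.56e-04). Pcdh12 averaged 2.04 RPKM over the HDAC inhibitors and 0.479 over the 22 others, and so met the filter only through the group where it was high. The difference was 0.70 ± 0.26 for Pcdhb2 (0.0257) and -0.70 ± 0.24 for Pcdhac2 (0.0194), and these calls were lost when the low genes were not filtered out (0.0567 and 0.0590). The call for Pcdhb2 was also lost without BRD4884 (0.0775), BRD6688 (0.0547) or CI-994 (0.0655) and with the 13 other activators alone as the reference (0.101), and that for Pcdhac2 without CI-994 (0.0543) or Vorinostat (0.167) and with each condition centred on its median gene (-0.48, 0.0874). The other 12 tested members did not pass, with differences from -0.36 to 0.56 (lowest adjusted p 0.0606, for Pcdhb10). Pcdhb10 passed as higher with that centring (0.78, 0.0122) and without CI-994 (0.77, 0.0273). The median over the 15 clustered genes was 0.0076, and over all genes tested -0.13. Pcdh15, with a mean just under the filter, gave 0.98 ± 0.25 in the fit without a filter (adjusted p = 0.00528).

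With 5-azacytidine, 0 of the 6 tested entries passed in the junction reads under limma (1 at an unadjusted p under 0.05, and 0 with voom weights). In the gene table all 9 members above 1 RPKM in DMSO were lower than in DMSO, and the summed levels were 0.666 (Pcdha), 0.712 (Pcdhb), 0.696 (Pcdhg) and 0.787 (others) times DMSO. The share of all genes lower under the same choice is not given here, and choosing genes by their DMSO value favours a fall. This count of 9 therefore has little weight. Pcdhgb1 went from 4.73 to 1.72 RPKM, Pcdha9 from 4.46 to 1.99, Pcdhac2 from 19.31 to 13.58 and Pcdhgc3 from 18.16 to 14.11. On ratios of RPKM + 0.5 Pcdhgb1 was the one member past 2-fold at the limit of 1 RPKM, where 1.76% of all genes were lower and 2.5% higher. On plain ratios 3 of the 8 clustered genes that met the limit were lower, namely Pcdhgb1, Pcdha9 and Pcdhb20 (from 1.08 to 0.50 RPKM), and none higher, where 2.37% of all genes were lower and 3.66% higher. The median log2 ratio of the 8 clustered genes above 1 RPKM was -0.61, and that of all 12446 genes above this limit -0.014. The same clustered medians with the 22 other compounds ran from -0.85 to 0.87, so the value with 5-azacytidine lay within their range.

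The single 5-azacytidine library gave 11.6 RPM for the Pcdha and 10.96 for the Pcdhg constant exons, both below the 3 DMSO libraries. The log2 differences were -0.43 ± 0.22 (limma adjusted p = 0.306) and -0.40 ± 0.16 (0.180), with 3.88% of genes lower and 1.91% higher. Pcdh17 had 0.702 RPM, Pcdh12 0.134, Pcdh15 1.77 and Pcdh1 31.3, with adjusted p from 0.263 to 0.697. The 11 members at 0 RPKM in DMSO stayed at 0.06 RPKM or less with 5-azacytidine.

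**Figure D3:**
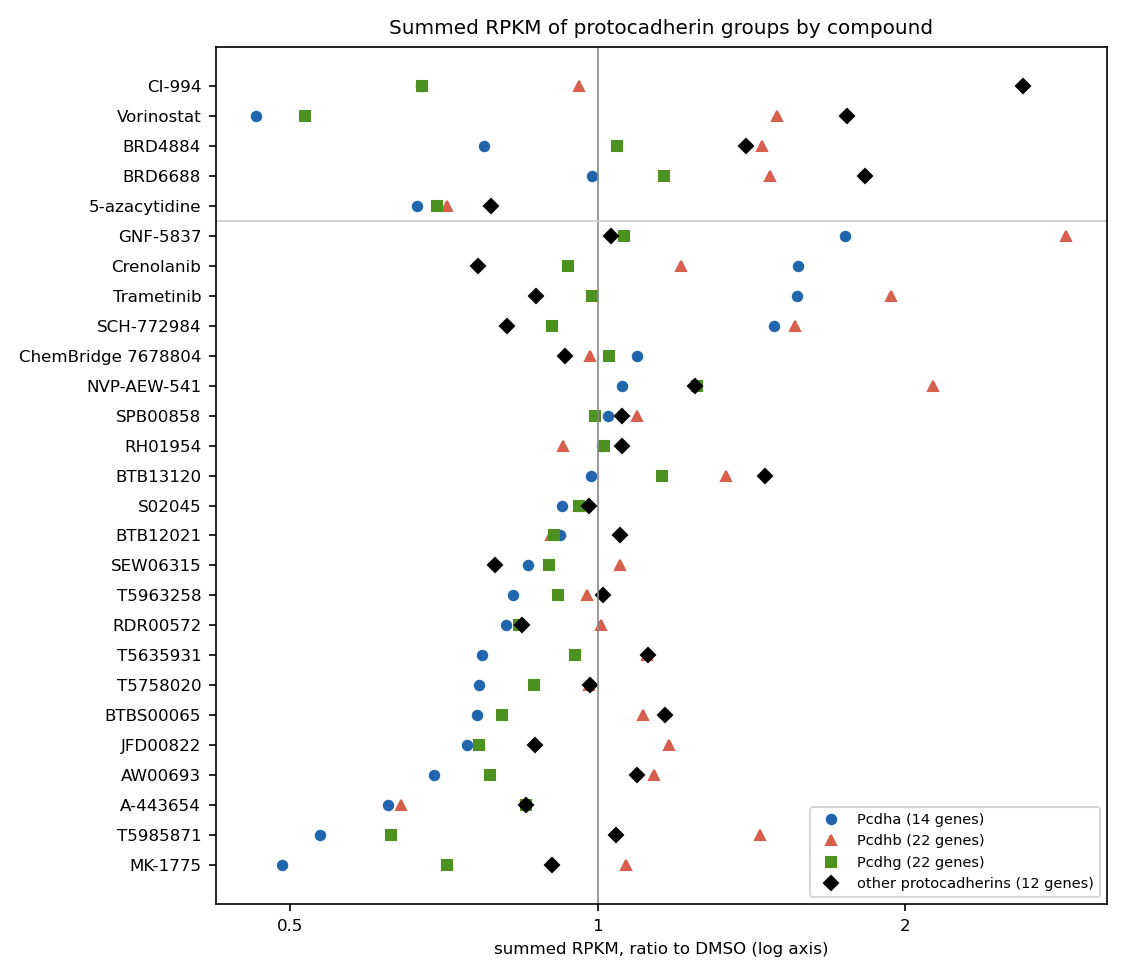
Summed RPKM of the 14 Pcdha, 22 Pcdhb, 22 Pcdhg and 12 other protocadherins with each of the 27 compounds, as a ratio to DMSO (x axis, log scale, 1 merged value per compound, no error bars), with HDAC inhibitors and 5-azacytidine above the line and the 22 others below it by Pcdha ratio. All 4 HDAC inhibitors have the other protocadherins at 1.40 or more, as does BTB13120 (1.46). The sum of these 12 genes is mostly Pcdh1, which held 49.16 of 50.48 RPKM in DMSO. 5-azacytidine has all 4 groups below 1, and GNF-5837 has the Pcdhb sum at 2.88.

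Among the 22 other compounds, most of those named here were used at 0.5 µM (GNF-5837), 1 µM (Trametinib and NVP-AEW-541), 2 µM (Crenolanib, SCH-772984 and MK-1775), 0.25 µM (A-443654) and 6.7 µM (T5985871). Over the 22 the summed ratios to DMSO had medians of 0.887 (Pcdha), 1.10 (Pcdhb), 0.910 (Pcdhg) and 0.998 (others), and the Pcdha sum ran from 0.491 to 1.75. It was 1.75 times DMSO with GNF-5837, a TRK inhibitor, 1.57 with Trametinib, a MEK inhibitor, 1.57 with Crenolanib, an inhibitor of PDGF receptors and FLT3, and 1.49 with SCH-772984, an ERK inhibitor. It was lowest at 0.491 with MK-1775, a WEE1 inhibitor, 0.535 with T5985871 and 0.624 with A-443654, an AKT inhibitor. The Pcdhb sums followed in part, at 2.88, 1.94, 1.21 and 1.56 with the first 4 compounds and 2.13 with the IGF1 receptor inhibitor NVP-AEW-541, whereas the Pcdhg sums with those 5 stayed between 0.902 and 1.25.

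GNF-5837 had the most clustered genes higher by more than 2-fold at the limit of 1 RPKM. On ratios of RPKM + 0.5 these were 6 Pcdhb genes (Pcdhb2, Pcdhb3, Pcdhb6, Pcdhb10, Pcdhb11 and Pcdhb17), and Pcdh15 was higher too, against 5.63% of all genes. Plain ratios added Pcdha1, Pcdhb20 and Pcdhb21, which made 9 of 16 clustered genes (7.55% of all genes higher). Of these 9, 8 were below 1 RPKM in DMSO, as was Pcdh15, and met the limit only through their level with GNF-5837, so the counts give no more than the values. With GNF-5837, Pcdhb11 stood at 2.64 RPKM, Pcdhb17 at 2.51, Pcdhb6 at 2.42, Pcdhb2 at 2.1 and Pcdhb10 at 1.85. Other compounds gave higher values for Pcdhb10 (2.67 RPKM with NVP-AEW-541), Pcdhb6 (2.59 with T5985871) and Pcdhb2 (2.11 with BTB13120). On ratios of RPKM + 0.5, 17 of the 22 compounds had no clustered gene higher and 18 none lower by more than 2-fold, where between 1.4% and 10.1% of all genes were higher and 1.27% to 8.91% lower. On plain ratios 16 had none higher and 16 none lower. With 1 library per compound these differences have no replicate check of their own.

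In the junction reads the Pcdha constant exons had 30.8 RPM with GNF-5837, 29.9 with Crenolanib, 25.3 with Trametinib and 22.4 with SCH-772984, all above the 3 DMSO libraries. The log2 difference was 0.94 ± 0.22 (SE) with GNF-5837 (limma adjusted p = 0.00362, 25.3% of genes higher), 0.90 ± 0.22 with Crenolanib (0.00726, 17.9%) and 0.67 ± 0.22 with Trametinib (0.0453, 12%), but 0.49 ± 0.22 with SCH-772984 did not pass (0.204, 3.93%). The call with Trametinib was lost when any DMSO, BRD4884, BRD6688 or CI-994 library was left out. It was also lost with median-ratio scaling (0.0588), with a pseudocount of 0.1 (0.0504) and without the filter (0.166). The call with Crenolanib was lost without the filter (0.0545), and that with SCH-772984 was gained without either Vorinostat library. T5985871 had 7.46 RPM, a fall by 1.03 ± 0.22 on the log2 scale (0.00137, 34.7% of genes lower). The Pcdhg constant exons passed as higher with GNF-5837 (0.54 ± 0.16, 0.0156) and BTB13120 (0.65 ± 0.16, 0.00908, 15.3% of genes higher) and as lower with T5985871 (-0.59 ± 0.16, 0.0065, and 0.0682 with median-ratio scaling).

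With the 22 other compounds, 0% to 25.3% of all genes passed as higher in the junction reads (median 6.24%) and 0% to 34.7% as lower (median 6.72%). Pcdh15 passed as higher with 7 of the 22 and as lower with 2. It had 8.40 RPM with Crenolanib, 8.37 with GNF-5837, 7.89 with Trametinib, 5.49 with NVP-AEW-541 and 5.22 with SCH-772984, against 1.35 to 1.60 in DMSO. These values overlapped those with BRD4884, BRD6688 and Vorinostat. The log2 differences were 2.20 ± 0.27, 2.19 ± 0.27, 2.11 ± 0.27, 1.63 ± 0.27 and 1.56 ± 0.27 (SE), with limma adjusted p from 0.00294 (SCH-772984) to 2.71e-05 (GNF-5837). A-443654 gave 0.299 RPM, a log2 difference of -1.28 ± 0.27 (0.00658, 6.43% of genes lower). Fewer of the 22 changed the other genes, with 4 higher for Pcdh1, 3 for Pcdh12 and 2 for Pcdh17, and none lower. NVP-AEW-541 was among the compounds for all 3 genes, at log2 differences of 0.57 ± 0.12 (0.0033) for Pcdh1, 1.52 ± 0.33 (0.00405) for Pcdh12 and 0.90 ± 0.22 (0.00752) for Pcdh17, and 20.3% of genes were higher with it.

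BRD4884 and BRD6688, which the study describes as derivatives of CI-994, were the HDAC inhibitors used at the same dose and time, and this 1 pair was compared. Pcdh17 was higher with BRD4884, at a log2 difference of 0.77 between the compounds (95% interval 0.36 to 1.17, limma adjusted p = 0.0107), and the Pcdhg constant exons were lower, at -0.48 (-0.78 to -0.19, 0.0199), where 31.3% of genes differed between the compounds. In both cases the 2 libraries of one compound lay apart from the 2 of the other, and the share of all genes that separate so is not given here. Without BRD4884 library A or either BRD6688 library the call for Pcdh17 was lost (0.0514 to 0.0704), and leaving out any of the 4 libraries ended that for Pcdhg (0.0635 to 0.123). The differences did not pass for Pcdh1 (-0.28, -0.51 to -0.055, 0.0559), Pcdh12 (0.028, -0.59 to 0.65), Pcdh15 (-0.11, -0.60 to 0.39) and the Pcdha constant exons (-0.18, -0.59 to 0.23), and these intervals leave room for differences in either direction for the last 3. CI-994 at 5 µM and Vorinostat at 2.5 µM differ from them in dose, and their values stand side by side above without a comparison.

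Splicing within protocadherin transcripts could be read for few events. Between 9 and 11 of 149 protocadherin events had enough reads with each HDAC inhibitor and 5-azacytidine, and none differed from DMSO by at least 10 percent spliced in (PSI) with every library beyond every DMSO library, where 1.7% (CI-994), 1.54% (Vorinostat), 1% (BRD4884), 1.12% (BRD6688) and 1.54% (5-azacytidine) of all events did. The 1 event that passed with any compound was an exon of Pcdh17 with NVP-AEW-541, at 12 PSI in its single library and 0 in 2 DMSO libraries, where 1.29% of all events passed with this compound. The same exon had 1.37 to 7.78 PSI in the 8 HDAC inhibitor libraries.

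Genes tied to protocadherins by function were read from fixed lists. The list of chromatin architecture and silencing factors that act on the clusters (CTCF, cohesin and its loaders, SMCHD1, DNA methyltransferases and others) had 0 of 19 higher and 15 lower with HDAC inhibitors than with the 22 other compounds, where 17.8% of all genes passed as higher and 31.9% as lower, with a median log2 difference of -0.58 against -0.13 over all genes. In the junction reads 17 of the list were tested against DMSO, with 2 higher and 13 lower with CI-994, 2 and 14 with Vorinostat, 2 and 14 with BRD4884 and 3 and 3 with BRD6688 (median log2 difference -0.096). Of all genes, 35.3% (CI-994), 34.3% (Vorinostat), 19.7% (BRD4884) and 24.6% (BRD6688) were lower in these 4 tests. Ctcf, whose protein bridges cluster promoters and enhancers, was at 89.24 RPKM in DMSO, 31.74 with CI-994, 30.11 with Vorinostat, 42.77 with BRD4884 and 71.71 with BRD6688. Ctcf stood at 76.96 RPKM with 5-azacytidine. The summed level of the list was 1441.76 RPKM in DMSO, 681.99 (Vorinostat) to 1114.6 (BRD6688) with HDAC inhibitors and 1415.49 with 5-azacytidine. Whether these levels bear on the clustered genes was not tested.

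Of 49 other cadherin superfamily genes, 11 were tested by RPKM, of which 5 passed as higher and 0 as lower (median log2 difference 0.43), against the same 17.8% and 31.9% of all genes. In the junction reads 24 were tested, with 22 higher and 0 lower with CI-994, 17 and 4 with Vorinostat, 18 and 2 with BRD4884 and 20 and 0 with BRD6688, where 39.9% to 41.5% of all genes were higher. Of the 49 genes, 21 were at 0 RPKM in DMSO and 9 above 1 RPKM. The read filter averages over all libraries, so genes low in DMSO may have met it through the HDAC inhibitor libraries, which raises the counts higher. Cdh15, the muscle cadherin, was at 0.67 RPKM in DMSO and at 6.60, 5.50, 3.44 and 2.47 with CI-994, Vorinostat, BRD4884 and BRD6688, which is in the same order as Pcdh17. Cdh2, the neural cadherin, was at 6.56 in DMSO and at 8.74, 7.82, 5.63 and 6.89.

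Known partners of protocadherins (16 tested) had 3 higher and 5 lower by RPKM, with a median of -0.033, again where 17.8% and 31.9% of all genes passed. In the junction reads, where the reference is DMSO and not the other compounds, 11 of the 16 were higher and 2 lower with CI-994. The counts were 9 and 3 with Vorinostat, 9 and 1 with BRD4884 and 10 and 2 with BRD6688. Of all genes, 39.9% to 41.5% were higher and 19.7% to 35.3% lower in these 4 tests, with median log2 differences of 0.079 to 0.17. Among the partners Cyfip2, a subunit of the WAVE regulator, was at 8.05 RPKM in DMSO and 13.73 to 24.11 with HDAC inhibitors. Genes that lie beside the clusters (13 tested) had 4 higher and 7 lower by RPKM, with a median of -0.23 against -0.13 over all genes and the same shares of all genes. In the junction reads they had 4 higher and 7 lower with CI-994, 4 and 5 with Vorinostat, 3 and 3 with BRD4884 and 3 and 6 with BRD6688, against the same 39.9% to 41.5% of all genes higher and 19.7% to 35.3% lower.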

How the data were processed

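Neuro-2A cells were treated for 24 h, and polyA+ RNA of 34 libraries was sequenced. Groups follow the sample labels; compound names and doses follow the study's compound list, which gives 2.5 µM for Vorinostat where another part of the study gives 2 µM. For expression, the authors quantified transcripts with Salmon (version 0.10.2 per the submitters' notes) against GENCODE annotation and deposited RPKM values per gene and condition, replicates merged; the read depth of this table is unknown. Its columns of fold change, p-value and FDR (edgeR) hold the authors' own comparisons and were not used, nor was a second splicing table with PSI per condition. For splicing, the authors ran vast-tools on mm9 and deposited PSI as a percent per event and library, and beside it quality columns, not in a standard unit, that hold read counts; the deposited intron counts gave exon-exon junction reads per gene. Salmon divides reads among isoforms that share constant exons, so values of single Pcdha and Pcdhg genes are uncertain. The strand setting is not given in the sources used here.

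RPKM ratios to DMSO used log2(RPKM + 0.5), which understates changes of low genes. HDAC inhibitors were compared with the 22 other compounds (genes with a mean of at least 0.5 RPKM), and junction reads per library with DMSO (log2 of reads per 1000000 junction reads + 0.5, genes with a mean of at least 10 reads), by limma 3.58.1 with trend, two-sided, with Benjamini-Hochberg adjustment over all genes and R 4.3.3; a difference passed at an adjusted p below 0.05. The junction fit has 6 residual degrees of freedom, and a single library is assumed to vary like the replicated groups. The study states biological replicates, 2 for DMSO, where 3 libraries carry that label; p-values measure the spread among these libraries. The scripts were tested on simulated data. The genes with the highest mean RPKM in each group (up to 4) and the largest 4 rises and falls above 1 RPKM were named. Cdh15, Cdh2, Ctcf, Cyfip2 and the other WAVE regulator subunits, and marker genes, were named after their values were seen. Gene lists covered cluster architecture and silencing, the cadherin superfamily, protocadherin partners, genes beside the clusters, and neural, astrocyte, oligodendrocyte, fibroblast, immune and endothelial markers; the summed RPKM of astrocyte markers was 0.35 in DMSO and 0.22 to 4.98 with HDAC inhibitors, of oligodendrocyte markers 3.3 and 2.71 to 3.58, of immune markers 0.64 and 0.44 to 1.22, and of neural markers 1611.87 and 1768.43 to 2417.5. The members and lists were chosen with earlier results of these data known. Alternatives changed the pseudocount, the filter, the scaling, the test and the libraries. Promoter windows came from RefSeq on GRCm38.p6, gene coordinates from GENCODE on GRCm38, and splicing coordinates from mm9, and none were converted.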

Additional observations from a re-analysis of the deposited data

Results flagged for a closer look

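Reads running from the first intron of Pcdh1 into its second exon were seen with CI-994 and Vorinostat, in a column that no comparison used. The intron lies at mm9 chr18:38363261-38369212. Reads joining the 2 exons across it numbered 0 in each DMSO library, 6 and 1 with CI-994 and 1 and 1 with Vorinostat. This splice was thus hardly seen in these libraries, also without treatment. There were 26 and 54 such reads in the CI-994 libraries A and B and 37 and 41 in the Vorinostat libraries A and B, against 1, 7 and 0 in DMSO, 0 and 1 with BRD4884, 9 and 0 with BRD6688 and 0 with 5-azacytidine. The 22 other compounds had 0 to 14 (median 1.5), and 3 of them exceeded the highest DMSO library, at 0.197 reads per 1000000 junction reads.

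The difference between BRD4884 and BRD6688, tested as a contrast between the compounds, passed for Pcdh17 (log2 difference 0.77) and for the Pcdhg constant exons listed under Pcdhga12 (-0.48). Among the 4 HDAC inhibitors, Pcdhb20 had 1 value apart from the rest, 0.84 RPKM with CI-994 against 1.24 to 1.31, a gap of 0.869 of the whole range. This was checked for 18 genes, and chance gives about 1 such case in 20.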

How the results depend on the processing

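Counts past 2-fold in the RPKM table depended on the limit of 5 RPKM, since most members are low. At 1 RPKM and with no limit CI-994 had 4 and 4 higher and 1 and 1 lower, Vorinostat 3 and 3 higher and 3 and 3 lower, BRD4884 3 and 3 higher, BRD6688 3 and 4 higher, 5-azacytidine 1 and 1 lower, and GNF-5837 7 and 8 higher. On plain ratios at 1 RPKM, chosen after seeing the data, 5, 5, 4, 4 and 10 were higher (CI-994, Vorinostat, BRD4884, BRD6688 and GNF-5837) and 1, 3 and 3 lower (CI-994, Vorinostat and 5-azacytidine). With ratios centred on the median over genes above 5 RPKM, which shifted by -0.51 (CI-994), -0.42 (Vorinostat), -0.29 (BRD4884), -0.21 (BRD6688) and -0.22 (GNF-5837) on the log2 scale, the counts higher were 2 with Vorinostat, 1 with BRD6688 and 2 with GNF-5837. HDAC inhibitors against the other compounds gave 8 higher and 1 lower without a filter (18.2% of 52661 genes called). Among these 8, Pcdha10, Pcdhb1, Pcdh19 and Pcdh20 averaged 0.175 RPKM or less with HDAC inhibitors, so their calls have little weight. There were 1 and 1 at a mean of at least 5 RPKM and 1 lower with centring. Leaving out each HDAC inhibitor gave 3 to 4 higher and 1 to 2 lower. The exact permutation test over 14950 splits of the compounds gave adjusted p = 6.84e-04 for Pcdh17, whose unadjusted p of 6.69e-05 is the smallest it can give. Protocadherin loci lower with CI-994 numbered 1 with voom weights and 0 to 1 leaving out 1 library at a time.

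The sign changed for the Pcdha constant exons with BRD6688 (-0.041 with median-ratio scaling, -0.056 without BRD6688 library B) and for 2 genes in BRD4884 minus BRD6688 (Pcdh12 from -0.10 to 0.16 and Pcdh15 from -0.40 to 0.18 over left-out libraries); none of these passed. The cause of these changes was not tested. Replicate letters did not pair the libraries (correlations of the A and B deviations -0.21 to 0.04), and with the replicate block the counts stayed at 4 higher and 2 lower (Vorinostat), 4 and 0 (CI-994), 4 and 0 (BRD4884) and 5 and 0 (BRD6688), with no call changed. Fitting only DMSO and HDAC inhibitor libraries, and requiring balanced junction reads for PSI, were chosen after seeing the data; the first brought the BRD4884 and BRD6688 difference of Pcdh1 past the threshold (adjusted p = 0.0475). Of the other checks of single genes, 1020 kept direction and side of the threshold, 30 lost a call and 11 gained one; 288 counts moved by less than 1.5 times. Depth limits the low genes: 52 of 70 members could not be tested by RPKM, and most clustered genes have no value per library.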

Other observations

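Reads of Pcdh15 were unevenly spread along the gene, which has 29 introns in the splicing table. The first 14 and the last 15 introns held 96 and 45 junction reads over the DMSO libraries, 1442 and 363 over the 8 HDAC inhibitor libraries and 1111 and 358 over the 22 other compounds. The introns that join the variable exons of Pcdha6 and Pcdhga12 to the constant exons had 0 and 16 reads over all 34 libraries, against 8972 and 8395 for the last constant introns of the Pcdha and Pcdhg clusters.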
